A study of Bubalus bubalis with 12 samples.

Results

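The WFDC and Ly6 genes described here are 9 of the 34037 genes in the table of ruminal wall expression. LOC112583793, WFDC2, WFDC3 and SLPI belong to the WAP domain (WFDC) family, and SLURP1, LY6D, LYPD2, LYPD3 and PSCA to the Ly6 family. They were picked by symbol, as small secreted or surface proteins of epithelia, and LOC112583793 is the gene that the study names WFDC18. LOC112583793 and SLURP1 came to attention because the study had called them different between the diets of these same animals. It called SLURP1 with both of its methods, edgeR and NOISeq, and LOC112583793 with NOISeq only. The difference between diets is therefore given below as a description, with no test for single members. The name "secreted" does not cover the whole set, since LY6D, LYPD3 and PSCA are known as proteins anchored to the cell surface by a GPI lipid.

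Ruminal wall was taken at slaughter from 12 Italian Mediterranean dairy buffaloes (Bubalus bubalis), all adult cows from a single commercial farm that were already due for slaughter. The control group of 6 animals received a total mixed ration (TMR) without green forage, and the treated group of 6 received a TMR in which freshly cut ryegrass made up about 30% of the diet. Both rations had the same nitrogen and energy content, with more forage and less concentrate in the treated ration. The treated ration also had less corn silage and alfalfa hay, and no soybean meal, calcium carbonate or added vitamins. Ryegrass, the forage share and these other changes cannot be told apart. Each animal gave 1 stranded library of total RNA, with between 10531245 and 12947982 fragments counted on genes. Values are FPKM, which scale the fragments of a gene by its length and by all counted fragments of the animal. The read number behind each FPKM value was worked out from the steps between the values of a gene. The tissue is bulk wall, in which fewer cells of a type and less RNA per cell cannot be told apart.

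WAP domain proteins are small, disulfide-bonded proteins, of which several inhibit serine proteases, and SLPI is the best known of them as an inhibitor of neutrophil elastase with antimicrobial activity. Ly6 proteins share a three-fingered fold, which SLURP1 has in common with snake toxins that bind nicotinic acetylcholine receptors. SLURP1 is secreted by keratinocytes and acts on such receptors, and its loss in people causes a thickening of the skin of palms and soles. The inner face of the ruminal wall is a keratinised stratified squamous epithelium, in which basal cells divide and suprabasal cells differentiate towards the lumen.

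Summed over each list, markers of the squamous epithelium were abundant in all libraries. Single suprabasal genes differed widely, with means of 1572 FPKM for KRT13, 569 for TGM3 and 420 for IVL over the 12 animals. KRT4, KRT10, SBSN and CDSN had means of 0.494, 1.76, 0.647 and 0.536 FPKM. In the suprabasal score used below, these low genes weigh as much as KRT13. Basal keratins and other basal genes summed to between 1295 and 3104 FPKM in control and between 1443 and 3965 FPKM in treated animals, and suprabasal squamous genes to between 2097 and 4119 and between 1668 and 3378 FPKM, respectively. Of 12 markers of glandular secretory epithelium, 5 had no more than 3 reads in any animal, among them TFF1 and BPIFB1, both at 0 in all animals, while KRT19, EPCAM, KRT8 and KRT7 passed the filter with means of 213, 58.3, 17.5 and 7.17 FPKM over the 12 animals. KRT8 and KRT7 are keratins of simple epithelia, and KRT7 ran from 0 to 27.3 FPKM, with 4.17 ± 9.71 FPKM (SD, n = 6) in control and 10.2 ± 11.7 FPKM (SD, n = 6) in treated animals. KRT18, the usual partner of KRT8, was listed at 0 in every animal. The 9 smooth muscle genes tested all had negative log2 fold changes (treated minus control), with a median of -0.69, and 1 of them, the muscle intermediate filament gene DES, had a nominal p-value below 0.05. Their summed level was between 33.0 and 56.9 FPKM in control and between 22.4 and 47.8 FPKM in treated animals. All 8 fibroblast genes had negative values too, with a median of -0.66 and none with a nominal p-value below 0.05. The part of these tissue markers in the differences described below was not tested, beyond fits with the smooth muscle or the suprabasal score as a covariate. With the suprabasal score, the log2 fold change was 0.77 for SLURP1, 0.33 for LY6D, 0.03 for LYPD3 and 3.01 for LOC112583793.

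The only sequences in the sources used here for these genes are the rt-qPCR primers for LOC112583793. They are shown because they mark the transcript behind the LOC name, whose 0 in 1 animal is described below. Both are written 5′ to 3′.
LOC112583793 forward primer: ctcttgtcaaaggacaacagga
LOC112583793 reverse primer: gctttgcagacatgaccacac
The forward primer has 22 bases with a GC content of 45.5%, and the reverse primer 21 bases with a GC content of 52.4%.

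The 9 genes covered the range from abundant to listed at 0. By mean FPKM over the 12 animals, LOC112583793 ranked 565 of all genes at 104 ± 62.1 FPKM (SD, n = 12), LYPD3 ranked 801 at 72.0 ± 22.1, and SLURP1 ranked 1442 at 41.0 ± 20.3. LY6D followed at 9.27 ± 9.20 FPKM and WFDC3 at 1.25 ± 0.654. WFDC2 and LYPD2 had 22 and 18 reads in all 12 animals together. SLPI and PSCA were listed at 0 in every animal, as were 11065 genes of the table. Whether such a 0 comes from depth was not tested, and KRT18 was likewise listed at 0 while KRT8 had up to 985 reads. In a gene that has reads elsewhere, a count of 0 was taken to allow up to 3 reads, for counting error only.

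**Figure D1:**
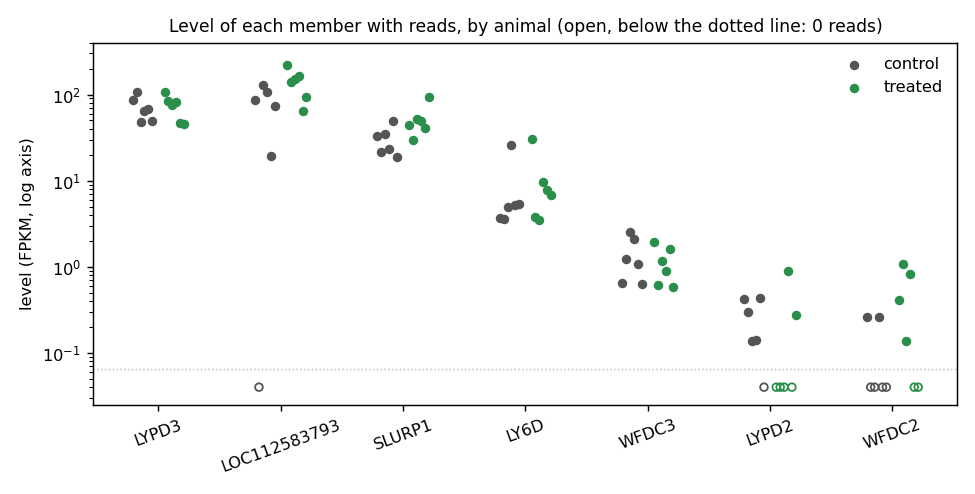
Level of the 7 WFDC and Ly6 genes with reads in the ruminal wall, in FPKM on a log axis, each point an animal of the control (grey) or treated (green) group. Open points below the dotted line are animals with 0 reads, and the genes stand in the order of their mean log2 level, from LYPD3 to WFDC2.

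The order of levels was tested within animals, which the choice of genes did not use. On the mean of log2(FPKM + 0.01), the order was LYPD3, LOC112583793, SLURP1, LY6D, WFDC3, LYPD2 and WFDC2. Of the 6 pairs of neighbours, 3 differed beyond their spread by a two-sided exact sign-flip permutation test over the 12 animals with Benjamini-Hochberg adjustment over the 6 pairs, in which no unadjusted p-value can be below 0.000488. SLURP1 stood above LY6D by 2.45 ± 1.22 on the log2 scale (SD, n = 12) in 11 of 12 animals (exact permutation test, adjusted p = 0.00195). LY6D stood above WFDC3 by 2.61 ± 0.957 in 12 of 12 animals (exact permutation test, adjusted p = 0.00146). WFDC3 stood above LYPD2 in 12 of 12 animals (exact permutation test, adjusted p = 0.00146), and the size of this difference, 3.89, fell to 2.39 and 0.86 with 0.1 and 1 added in place of 0.01, since LYPD2 had 3 reads or fewer in 11 animals.

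The upper 3 genes could not be ranked with all 12 animals. LYPD3 was 0.60 ± 4.11 above LOC112583793 on the log2 scale (SD, n = 12), although LOC112583793 was the higher of the pair in 10 of 12 animals (exact permutation test, adjusted p = 0.967). LOC112583793 was above SLURP1 in 9 of 12 animals (exact permutation test, adjusted p = 0.967). Both differences changed without control replicate 2, in which LOC112583793 had 0 reads, but only the pair with SLURP1 then passed the adjustment. Without this animal LOC112583793 was above SLURP1 by 1.32 (n = 11, exact permutation test, adjusted p = 0.00879), and LYPD3 minus LOC112583793 was -0.56 (n = 11, exact permutation test, adjusted p = 0.0809). LYPD2 and WFDC2, at the bottom, did not differ beyond their spread (exact permutation test, adjusted p = 0.967).

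Of the WAP genes among the members, LOC112583793 carried nearly all reads. The control animals 1 to 6 had 566, 0, 882, 712, 125 and 405 reads of it. The treated animals 1 to 6 had 1394, 898, 964, 1035, 403 and 632 reads. In FPKM the control group ran from 0 over a median of 79.2 to 129, and the treated group from 64.5 over a median of 147 to 221. Thus 4 treated animals lay above every control animal and 2 control animals below every treated animal, while the other animals overlapped. The mean was 68.9 ± 50.1 FPKM (SD, n = 6) in control and 139 ± 54.9 FPKM (SD, n = 6) in treated animals, a ratio of 2.02. Without control replicate 2, the control mean was 82.7 ± 41.4 FPKM (SD, n = 5) and the ratio 1.69. The fitted log2 fold change of 3.02 (SE 1.86) is no measure of this difference, since it depends on the 0.01 added to the 0 of that animal. It was 2.46 and 1.90 with 0.1 and 1 added, and 0.89 without control replicate 2.

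**Figure D2:**
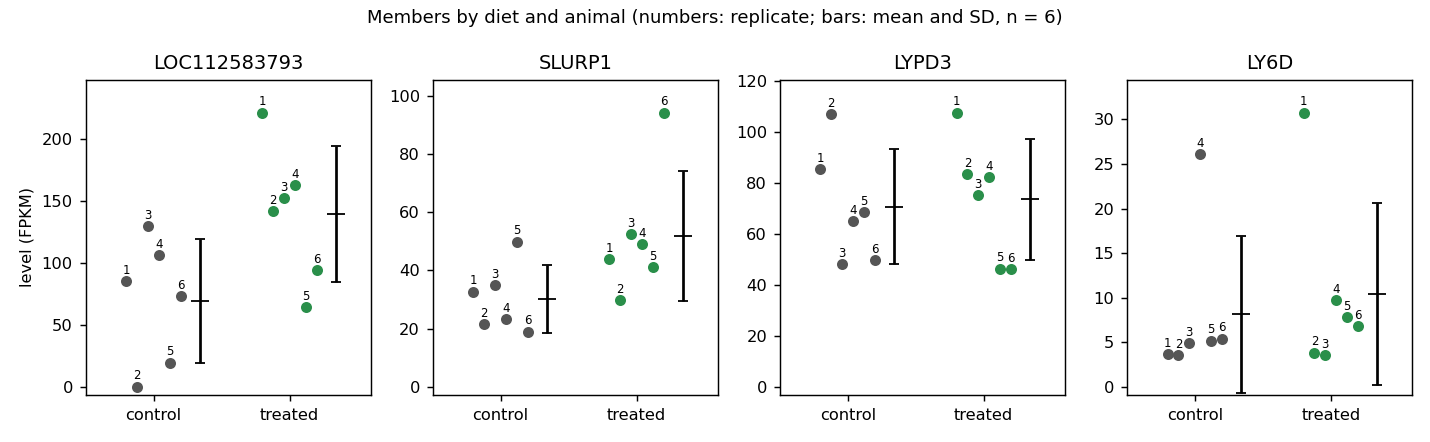
FPKM of LOC112583793, SLURP1, LYPD3 and LY6D in each animal by diet, with the replicate number beside each point and the mean and SD of the 6 animals as a bar. LOC112583793 is at 0 in control replicate 2, treated replicate 6 stands apart for SLURP1, and control replicate 4 and treated replicate 1 stand apart for LY6D, while the LYPD3 values of both groups span nearly the same range.

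The 0 of control replicate 2 was looked at after it had been seen. Of 8484 genes with at least 100 reads in at least 11 animals, LOC112583793 was the only gene with 0 reads in the remaining animal. The other 11 animals had between 125 and 1394 reads, with a median of 712. Taking 3 reads as the floor, LOC112583793 was below 0.478 FPKM in control replicate 2, so that the median of the other animals, 106 FPKM, was at least 223-fold higher and the lowest of them, control replicate 5, at least 40.5-fold higher. Control replicate 2 was not low in depth, with 11914338 fragments counted. It also had the most LYPD3 of its group, at 107 FPKM.

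The genes on both sides of LOC112583793 in the order of the NDDB_SH_1 assembly of RefSeq, another build than that of the files, were not at 0 in this animal. LOC102414393 had 2229 reads in control replicate 2 and between 1340 and 3818 over all animals. LOC112583794 had 1073 reads in control replicate 2 and between 486 and 1682 over all animals. Both had similar means in the diet groups, with 333 ± 122 FPKM (SD, n = 6) in control and 324 ± 148 FPKM (SD, n = 6) in treated animals for LOC102414393, and 140 ± 47.2 against 145 ± 51.7 FPKM (SD, n = 6 each) for LOC112583794. How much of its sequence LOC112583793 shares with these neighbours, and so how many reads the mapping quality filter of the authors removed, was not analysed here.

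**Figure D3:**
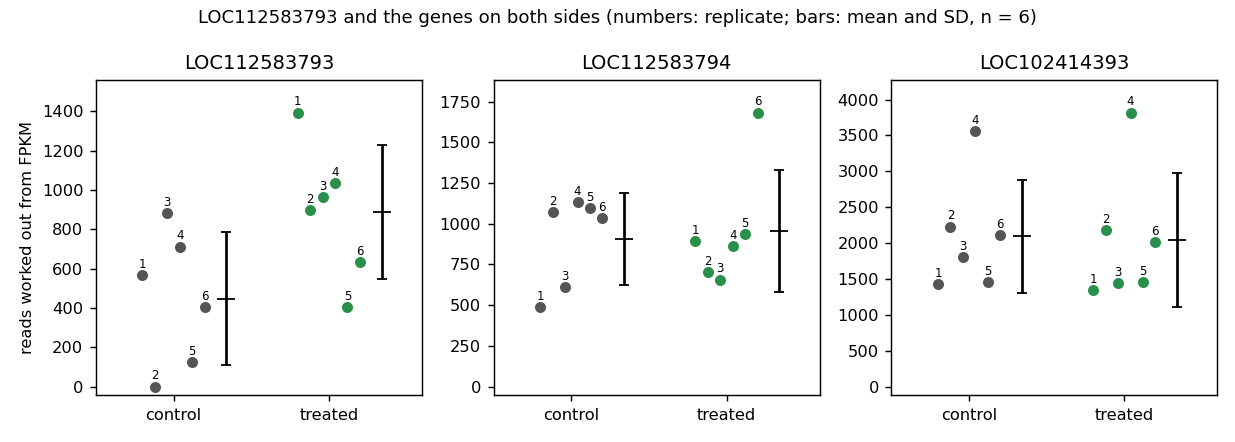
Reads of LOC112583793 and of the genes on both sides of it in each animal by diet, with replicate numbers and the mean and SD of the 6 animals. Control replicate 2 has 0 reads of LOC112583793, but 1073 of LOC112583794 and 2229 of LOC102414393.

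The other WAP members were low. Further genes with only a LOC name, among them the neighbours of LOC112583793, were not examined for a WAP domain. WFDC3, a gene with several WAP domains, had between 8 and 40 reads per animal and reached 1.37 ± 0.781 FPKM (SD, n = 6) in control and 1.13 ± 0.544 FPKM (SD, n = 6) in treated animals. Its log2 fold change, in a fit without a filter on low values, was -0.22 (SE 0.43), so that both diets overlapped widely. WFDC2, which is known from the epididymis and as the tumour marker HE4, had 0 reads in 4 control and 2 treated animals. More than 3 reads of WFDC2 were counted in 2 animals, both treated, with 8 in replicate 2 and 6 in replicate 4, and no fold is given at this level.

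Of the Ly6 genes, SLURP1 had the clearer shift between diets, while the groups overlapped over nearly the whole range for LYPD3 and LY6D. The control animals 1 to 6 had 247, 154, 272, 177, 368 and 120 reads of SLURP1, and the treated animals 316, 215, 380, 356, 294 and 722. In FPKM, SLURP1 ran from 18.9 over a median of 27.9 to 49.8 in control and from 29.6 over a median of 46.4 to 94.2 in treated animals. All 6 treated animals were above the control median and 2 were above every control animal. The mean was 30.2 ± 11.5 FPKM (SD, n = 6) in control and 51.7 ± 22.2 FPKM (SD, n = 6) in treated animals, a ratio of 1.72. Without treated replicate 6, which had the most SLURP1, the treated mean was 43.3 ± 8.79 FPKM (SD, n = 5) and the ratio 1.43. The log2 fold change was 0.77 (SE 0.27) and stayed between 0.58 and 0.93 with each animal left out in turn. With the smooth muscle score as a covariate, which was lower in the treated group by 0.61 on the log2 scale, it was 0.86.

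LYPD3, a protein of migrating and differentiating keratinocytes, had the steadiest level of the abundant members. It ran from 48.0 over a median of 66.7 to 107 FPKM in control and from 46.1 over a median of 78.7 to 107 FPKM in treated animals. The means were 70.6 ± 22.5 and 73.5 ± 23.8 FPKM (SD, n = 6 each), with a log2 fold change of 0.05 (SE 0.24) that lay between -0.07 and 0.18 with each animal left out. Its sign turned in some of these fits and with the smooth muscle score as a covariate (-0.11), so that no direction is given.

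LY6D, known as the keratinocyte antigen E48 and also as a marker of early B cells, was low in most animals and high in a pair of them. It ran from 3.54 over a median of 5.03 to 26.1 FPKM in control and from 3.51 over a median of 7.31 to 30.8 FPKM in treated animals. The highest values were those of control replicate 4, with 251 reads, and of treated replicate 1, with 279 reads, while the other animals had between 32 and 89. The ratio of the means was 2.30 without control replicate 4 and 0.781 without treated replicate 1, so that the direction rested on which of these animals was left out. The log2 fold change of 0.37 (SE 0.55) was -0.15 with the smooth muscle score as a covariate. LYPD2, which lies beside SLURP1 in the NDDB_SH_1 order, had more than 3 reads in 1 animal, treated replicate 4, and 0 reads in 1 control and 4 treated animals. The order there is THEM6, SLURP1, LYPD2, LOC102395337 and LY6D, and LOC102395337 had 12.7 ± 4.41 FPKM (SD, n = 6) in control and 14.8 ± 4.60 FPKM (SD, n = 6) in treated animals. Thus adjacent genes of this cluster lay far apart in level.

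Over all genes, the diets were compared with limma on log2(FPKM + 0.01) for 12742 genes with at least 40 reads in at least 1 animal at the median depth. A nominal p-value below 0.05, the threshold of the study, was reached by 162 genes, which is 1.27% of the genes tested, of which 102 were higher (0.801%) and 60 lower (0.471%) in treated animals. With Benjamini-Hochberg adjustment 0 genes had a p-value below 0.05, by limma on FPKM as by limma-voom on the reads, in which 145 genes had a nominal p-value below 0.05. Of the 9 members, 4 passed the filter on low values, and 1 of these, SLURP1, was among the 162 genes. The groups overlapped for all 7 members with reads, whereas they did not overlap for 7 of the 12742 genes (0.0549%). The median log2 fold change of the 4 members was 0.57 against 0.005 over all genes, and over the 7 members with reads, in a fit without the filter, it was 0.37. Nothing can be read from this count or from these medians, since the same contrast had served to choose members. The p-values set the difference between the group means against the spread between these animals within groups.

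**Figure D4:**
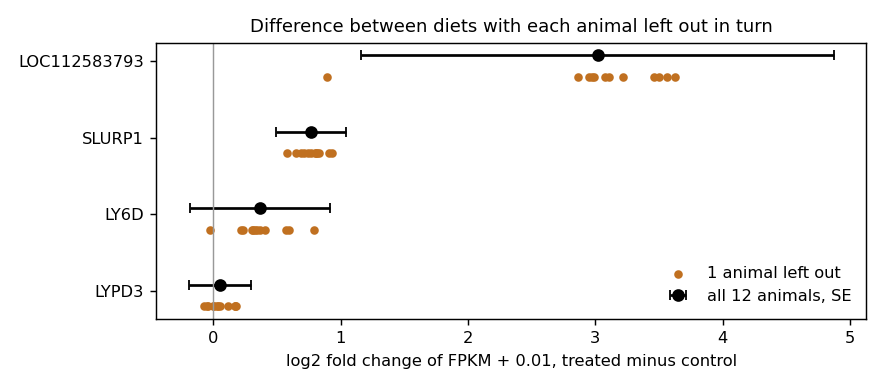
Log2 fold change of FPKM + 0.01, treated minus control, for the 4 members that passed the filter on low values. Black points with bars are the estimates over 12 animals with their SE, and orange points the estimates with each animal left out in turn. LOC112583793 drops from 3.02 to 0.89 without control replicate 2, SLURP1 stays between 0.58 and 0.93, and LY6D and LYPD3 lie on both sides of 0.

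The spread among animals of the same diet set these genes apart from each other. The SD within groups was 0.47 for LYPD3 and 0.54 for SLURP1 on the log2 scale, against a median of 0.36 over the 12742 genes, and these are at percentiles 66.9 and 74.1 of all genes. LY6D had an SD of 1.10, at percentile 96.0. LOC112583793 had an SD of 3.78, at percentile 99.9, and without control replicate 2 the SD was 0.86, at percentile 92.2. Treated replicate 1 had the highest FPKM of LOC112583793, LYPD3 and LY6D, and treated replicate 6 had the highest of SLURP1 and the lowest of LYPD3 and WFDC3.

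The relations of the members with the make-up of the tissue were examined on log2 values with the group means removed, so that the difference between diets does not enter. The 4 members with more than 3 reads in every animal, SLURP1, LYPD3, LY6D and WFDC3, were set against each other and against scores of basal epithelium, suprabasal squamous epithelium, smooth muscle and leukocyte genes, in 22 relations. By Pearson's r with permutation tests, 0 of 22 had an adjusted p-value below 0.05 and 2 of 22 an unadjusted one. Both were those of LYPD3. With the suprabasal score it had an r of 0.68 (n = 12, permutation p = 0.0207, adjusted p = 0.320) and a rho of 0.62 (permutation p = 0.0537). Without the 2 animals farthest from the median of that score, treated replicates 1 and 5, r was 0.45. With the basal score r was 0.64 (n = 12, permutation p = 0.0291, adjusted p = 0.320) and rho 0.58 (permutation p = 0.0610), and r was 0.40 without the 2 farthest animals. Without treated replicate 5 alone, LYPD3 and the basal score had an r of 0.89 (n = 11, permutation test, adjusted p = 0.00506). Neither relation passed the adjustment with all 12 animals.

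None of the relations of SLURP1 had a p-value below 0.05, adjusted or not. Its r was -0.05 with the suprabasal, -0.38 with the basal, 0.16 with the smooth muscle and -0.13 with the leukocyte score (n = 12, permutation tests, adjusted p between 0.647 and 0.937). Within the diets, r with the basal score was 0.39 in the control and -0.90 in the treated group (n = 6 each), and this difference was not tested. The sign of the relation over both groups rested on treated replicate 6, which had the most SLURP1, since r was 0.20 without it (n = 11, permutation test, adjusted p = 0.887) and -0.72 without control replicate 6 (n = 11, permutation test, adjusted p = 0.311). LY6D differed between measures of correlation. With the leukocyte score it had an r of 0.50 (n = 12, permutation p = 0.120, adjusted p = 0.530) and a rho of 0.85 (n = 12, permutation p = 0.00141, adjusted p = 0.0310). Without the 2 animals farthest from the median of the leukocyte score, r was 0.29. By rank, the relation was therefore past the threshold, and by Pearson's r it was not. LY6D and WFDC3 had an r of 0.53 (n = 12, permutation p = 0.0949, adjusted p = 0.522) and a rho of 0.24 (permutation p = 0.446).

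LOC112583793 was examined over the 11 animals without control replicate 2, a choice made after its 0 had been seen. None of its 8 relations had an adjusted or an unadjusted p-value below 0.05. The largest was with the suprabasal score, with an r of 0.46 (n = 11, permutation p = 0.124, adjusted p = 0.782) and a rho of 0.58 (permutation p = 0.0691), which fell to an r of 0.15 without treated replicates 1 and 5. LOC112583793 and SLURP1, both with a higher mean in the treated group, had an r of -0.42 within the groups (n = 11, permutation p = 0.233, adjusted p = 0.782) and a rho of -0.10 (permutation p = 0.789). Thus a relation between the levels of both genes among animals of the same diet was not shown.

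**Figure D5:**
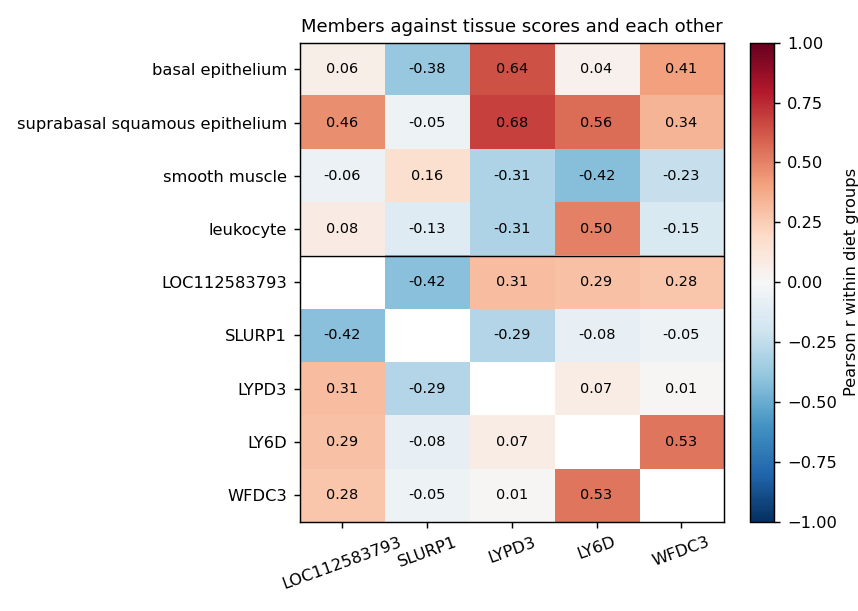
Pearson r of log2(FPKM + 0.01) with the diet means removed, for 5 members (columns) against 4 tissue scores (upper rows) and each other (lower rows), over 12 animals and, for LOC112583793, over 11. LYPD3 has the highest values with both epithelial scores, 0.68 and 0.64, and none of the values passed the adjustment.

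The genes most like each member were taken as the 5 tested genes with the highest r over the animals, with diet means removed, as a description. Each set holds the highest of at least 12741 values over few animals, so that high values can arise by chance, and none was tested. The median r over all genes lay between -0.119, for SLURP1, and 0.132, for LYPD3. For SLURP1 they were EPCAM (r = 0.90), an adhesion molecule of epithelial cells that is also on the glandular list above, ATP6V0B (0.86), a subunit of the vacuolar proton pump, PGRMC1 (0.85), TIMM29 (0.84) and PDZD11 (0.84), over 12 animals. For LYPD3 they were RNASEK, MYORG, XPO6, RASSF5 and MYO19, each with an r of 0.92. For LY6D they were RIN2 (0.90), RGS1 (0.88), RAB38 (0.88), RELB (0.88), a subunit of NF-kappa B, and SIGLEC10 (0.84), a receptor of leukocytes, and for these genes control replicate 4 and treated replicate 1 weigh most, since they hold most of the spread of LY6D. For WFDC3 they were CPNE2 (0.90), P3H2 (0.86), PSMD13 (0.85), NTPCR (0.83) and MBP (0.82). For LOC112583793 they were WTAP (0.93), ZNF593 (0.90), EPB41L2 (0.89), ZNF281 (0.88) and FUT11 (0.88), over 11 animals. None of the 5 sets shared a gene with another, nor with the members.

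The partners of these families were described by 5 lists with 106 genes in all, of which 31 passed the filter. Nominal p-values below 0.05 were reached by 1 of these 31 genes, which was higher in treated animals, against 1.27% of all genes. This was CHRNA9, the nicotinic receptor subunit alpha 9, with 1.78 ± 1.13 FPKM (SD, n = 6) in control and 2.75 ± 0.624 FPKM (SD, n = 6) in treated animals and a log2 fold change of 0.83 (SE 0.36). It was 1 of 3 tested among 16 nicotinic receptor subunits, and the median log2 fold change of these 3 was 0.07. Which subunits form the receptors on which SLURP1 acts was not analysed here, and CHRNA7 was not among the gene symbols found. Values of the other lists did not reach the threshold in either direction. The median log2 fold change was 0.16 for 8 tested of 26 other Ly6 genes, -0.06 for 15 tested of 34 serine proteases of epithelia and granules and -0.04 for 4 tested of 16 Kazal and Kunitz inhibitors, against 0.005 over all genes.

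Of 14 other WAP genes listed, 1 passed the filter, WFIKKN1, at a log2 fold change of 0.05 (SE 0.37). Protease inhibitors of other families were abundant in the same wall, which was seen only after their values were known. SPINT2, a Kunitz inhibitor of membrane serine proteases, reached 307 ± 33.5 FPKM (SD, n = 6) in control and 302 ± 25.8 FPKM (SD, n = 6) in treated animals, and SPINK5, the Kazal inhibitor of epidermal kallikreins, 196 ± 70.1 and 202 ± 46.4 FPKM (SD, n = 6 each). Among the other Ly6 genes, also named by their values, CD59, an inhibitor of complement, had 19.4 ± 4.65 FPKM (SD, n = 6) in control and 15.2 ± 2.95 FPKM (SD, n = 6) in treated animals, and LYPD5 had 15.8 ± 6.95 and 17.5 ± 6.17 FPKM (SD, n = 6 each).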

How the data were processed

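RNA-seq libraries of 12 animals, 6 control and 6 treated, were analysed, 1 per animal. The authors trimmed reads with Trimmomatic 0.39, aligned them to UOA_WB_1 with STAR 2.5.2b and counted them by strand with featureCounts 2.0.0 with a mapping quality minimum of 30. Deposited were FPKM values, and how the authors computed them is not given in the sources used here. Columns were matched to animals by the sample titles, and 4 columns without a match were not used. The read number of a gene was taken as the smallest whole numbers behind its FPKM steps (tolerance 0.001), which gave the depth. This was possible for all 34037 genes, but the 11065 genes at 0 in every animal could not fail. A gene above 0 in a single animal always gets 1 read by this rule.

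The study had used a count model. Since the deposited unit is FPKM, limma 3.58.1 in R 4.3.3 (lmFit, eBayes with trend) was run on log2(FPKM + 0.01) instead, and fold changes of genes with zeros depend on the 0.01 added. Exact and permutation tests (100000 resamples) were run with Python 3.11.15, numpy 2.4.6 and scipy 1.17.1, all two-sided. The methods were tested on simulated data. A tissue score is the mean of the centred log2 values of a marker list. Gene symbols were matched by identifier, and 7 of 9 members were found in the RefSeq table of NDDB_SH_1, which served for gene order only. The named genes are the members, the genes of the lists with a nominal p-value below 0.05 and the 5 most similar genes per member, and others are said to have been chosen by their values. Members and lists were chosen with earlier results of these data known. The sensitivity to pseudocount, filter, scaling, test, block, covariates and single animals is given in the closing section. The rt-qPCR data were not analysed here, and their outcome in the study is not reported here.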

Additional observations from a re-analysis of the deposited data

Results flagged for a closer look

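In 4 of 14 groups of 6 animals examined, the highest value lay farther from the others than Dixon's test allows at the 95% level. Chance gives about 1 in 20 groups only for normally distributed values. Since the test was run on FPKM without a log scale, the number of marked groups cannot be set against that rate. SLURP1 was at 94.2 FPKM in treated replicate 6, while the next treated animal had 52.5 FPKM. LY6D was at 26.1 FPKM in control replicate 4 and at 30.8 FPKM in treated replicate 1, while the next animals had 5.39 and 9.73 FPKM. LYPD2 was at 0.883 FPKM in treated replicate 4, which stands for 6 reads. The 0 of LOC112583793 in control replicate 2 was not marked by this test, since the control values spread from 0 to 129 FPKM.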

How the results depend on the processing

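The number of genes with a nominal p-value below 0.05 between diets, 162, was 562 without a filter on low values and 301 with a filter of 0.1 FPKM in 6 or more animals, and between 145 and 331 with each animal left out, the highest without treated replicate 6. Of the 562 genes, 271 were higher and 291 lower. In each of these fits 0 genes passed the adjustment. The other alternatives for this number (pseudocounts of 0.1 and 1, median-ratio scaling, limma-voom and the tissue scores as covariates) gave between 145 and 223 genes.

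Whether control and treated animals with the same replicate number belong together was not tested. The study describes a random assignment to the groups and no pairs. Animals with the same replicate number also carry different numbers in their sample titles. The deviations of same-numbered animals had correlations between -0.0116 and 0.411 (mean 0.212), with 4 of 6 over 0.1 and 4 of 6 animals closest to their own number. The 30 pairs with other numbers had correlations between -0.350 and 0.206 (mean -0.0391), with 5 over 0.1. With the replicate number as a block, 325 genes had a nominal p-value below 0.05 and 0 passed the adjustment. With the same block, 3 of the 22 relations had an adjusted p-value below 0.05. They were basal score and SLURP1, smooth muscle score and LY6D, and WFDC3 and LY6D. These p-values cannot be used. With diet and number means removed, each control value is the treated value of the same number with the sign reversed. The permutation test took such mirrored values as separate animals, which makes its p-values too low. No relation is therefore read from the block.

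Of the 22 relations, 1 passed by Spearman's rho (leukocyte score and LY6D), and between 0 and 1 with each animal left out (basal score and LYPD3 without treated replicate 5). The cause of these changes was not tested. The order of levels changed its calls without control replicate 2. WFDC2 and LYPD2 had too few reads to be compared between diets, and SLPI and PSCA were listed at 0 throughout.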
